A study of Mus musculus with 3 samples.

Results

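The 7 genes described here are Hmgcs1, Sqle, Fdft1, Lss and Cyp51, which encode enzymes of cholesterol synthesis, and Srebf2 and Insig1, which encode regulators of that pathway. They were chosen by symbol, and 6 of the 7 could be placed among the 22367 protein-coding genes of GENCODE M1 on the mouse NCBI37/mm9 genome. Hmgcs1 could not be placed, and its sequence is given below without binding values. The genome-wide binding of both receptors was measured by chromatin immunoprecipitation and sequencing (ChIP-seq) in livers of male wild type C57BL/6 mice, aged 3 months in the labels and with no treatment named there. There were 3 libraries, 1 from an anti-RXRα precipitate, 1 from input chromatin without precipitation and 1 from an anti-RARα precipitate. With 1 library each, how many mice each came from is not given in the sources used here, no value has a replicate check, no test between libraries was possible, and the intervals given cover counting error only. None of the 7 genes encodes a protein that itself takes up LDL, so they are called cholesterol synthesis genes and regulators.

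Cholesterol is built from acetyl-CoA by a chain of enzymes that passes through mevalonate, squalene and lanosterol. The genes of these enzymes are switched on by SREBP-2, the product of Srebf2, which is released from the endoplasmic reticulum when sterols are low and binds sterol regulatory elements (SREs) in promoters, often beside CCAAT and GC boxes bound by NF-Y and Sp1. Insig1 encodes a protein that holds the SREBP precursors back when sterols are high. RARα and RXRα are nuclear receptors that bind retinoids, usually as pairs on direct repeats of a 6-base half-site, and RXRα also pairs with PPARα, LXR, FXR and PXR, through which it takes part in lipid homeostasis in the liver.

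For RXRα and input, the data are coverage in bins of 32 bp, called the signal. The totals of these deposited tracks corresponded to 9.99994 M RXRα reads and 9.99929 M input reads. These totals were nearly equal as deposited, and the RXRα track is named as a normalised signal. The study reports more uniquely mapped RXRα reads than its track holds, so read counts and their intervals here refer to the deposited tracks. RARα was given as a list of 143280 peaks, each with a summit and a score, and the list does not hold the depth of that library. The study reports more uniquely mapped reads for RARα than for RXRα. The unit of the score is not given in the sources used here. RARα peaks counted when the score was above 20, and RXRα regions were stretches of bins with at least 20 times the input, where the input was not taken below its genome mean. A RARα peak was co-localized when it overlapped an RXRα region by at least 25% of the narrower of them.

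All 6 placed genes had a RARα peak within 10 kb of the start, and 5 of 6 had an RXRα region there. Over all protein-coding genes these shares were 52.2% and 39.8%. A co-localized RARα peak was found at Sqle, Cyp51, Srebf2 and Insig1, 4 of 6, against 23.5% of all genes, and not at Fdft1 or Lss. Within 1 kb of the start the counts were 6 of 6 for RARα, against 40.9% of all genes, and 4 of 6 for RXRα, against 21.6%. At the 6 genes there were 22 RXRα regions within 10 kb of the start or in the gene, of which 13 touched a RARα peak of any score and 7 one above 20. Over all RXRα regions these shares were 53.7% and 25.4%, so the members' counts were near the background. At 16 of the 22 the bin with the highest ratio had no input read, so that its ratio rests on the genome mean of input, and 4 were 1 bin wide. These are counts in single libraries over 6 genes and do not set the genes apart by any test.

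The members' starts held more RXRα reads and more input reads within 1 kb than the medians of all protein-coding genes, 15.8 and 9.6. They lay above 78.0% to 94.8% of all genes for RXRα reads and above 67.7% to 98.2% for input reads. Within 1 kb to each side, Sqle had 70.6 RXRα reads and 24.6 input reads, and Fdft1 had 100 and 31.6. Lss had 54.4 RXRα reads and 18.0 input reads, and Cyp51 had 75.2 and 14.4. Srebf2 had 71.0 RXRα reads and 20.6 input reads, and Insig1 had 124.2 and 29.4. At each of the 6 starts the exact 95% Poisson interval of the RXRα reads lay above that of the input reads. RXRα thus exceeded input beyond counting error at all 6. The share of all genes for which this holds was not computed, so it does not set these starts apart. Reads can be fractional because a read that straddles the edge of a window is counted in part.

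**Figure D1:**
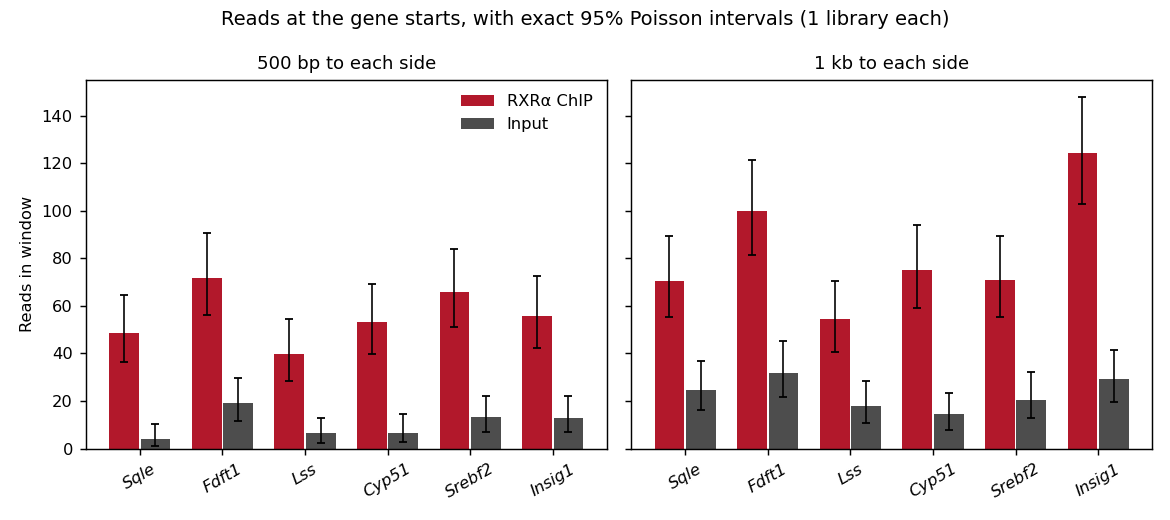
Bars give reads (vertical axis) at the starts of the 6 genes (horizontal axis) in the RXRα ChIP (red) and input (grey) libraries, within 500 bp (left) and 1 kb (right) to each side, and error bars are exact 95% Poisson intervals. In the 1 kb windows RXRα lies between 54.4 and 124.2 reads and input between 14.4 and 31.6 reads, and no pair of intervals overlaps. How many of all genes have such a gap was not computed.

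The RXRα enrichment, which is the RXRα signal scaled to the same genome mean as input and divided by the input signal, was, within 1 kb, 5.22 at Cyp51 (95% interval 3.00 to 10.3) and 4.22 at Insig1 (2.84 to 6.65). It was 3.45 at Srebf2 (2.05 to 5.79), 3.16 at Fdft1 (2.08 to 4.81), 3.02 at Lss (1.73 to 5.43) and 2.87 at Sqle (1.78 to 4.68). The intervals of all neighbours in this order overlapped, so the order was not resolved at the depth of the deposited tracks. The median of the 6 genes was 3.31 and that of all protein-coding genes 1.37, and each of the 6 lay above 72.2% to 89.7% of all genes. The input was high at these starts as well, with a median of 22.6 reads against 9.6 over all genes, and its part in the enrichment was not tested. In the narrower window of 500 bp to each side Sqle moved from the lowest place to the highest, with 48.6 RXRα reads and an enrichment of 12.8 (4.49 to 46.7), since 3.8 of the 24.6 input reads lay in that window. In the wider window of 2 kb to each side the enrichment was 2.84 at Cyp51 and 2.58 at Insig1, each more than 1.5 times lower, and Srebf2 was highest with 3.50.

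RARα scores spread more widely. The highest score within 10 kb was 161 at Insig1, 92 at Sqle, 71 at Fdft1, 67 at Cyp51, 66 at Srebf2 and 37 at Lss. Insig1 lay above 99.0% of all genes and Lss above 63.6%, while the median of all genes was 23. Every one of these summits lay within 1 kb of its gene start. The listed RARα peaks that held these summits abutted their neighbours with gaps of at most 10 bp, and each start lay in 1 such joined stretch of 931 bp at Fdft1, 1101 bp at Cyp51, 1220 bp at Lss, 1630 bp at Sqle, 1701 bp at Srebf2 and 2611 bp at Insig1. Within 1 kb of the starts and apart from these stretches, a lone listed peak of score 12 lay inside Fdft1 and one of score 9 upstream of Cyp51. Further listed peaks lay beyond 1 kb.

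**Figure D2:**
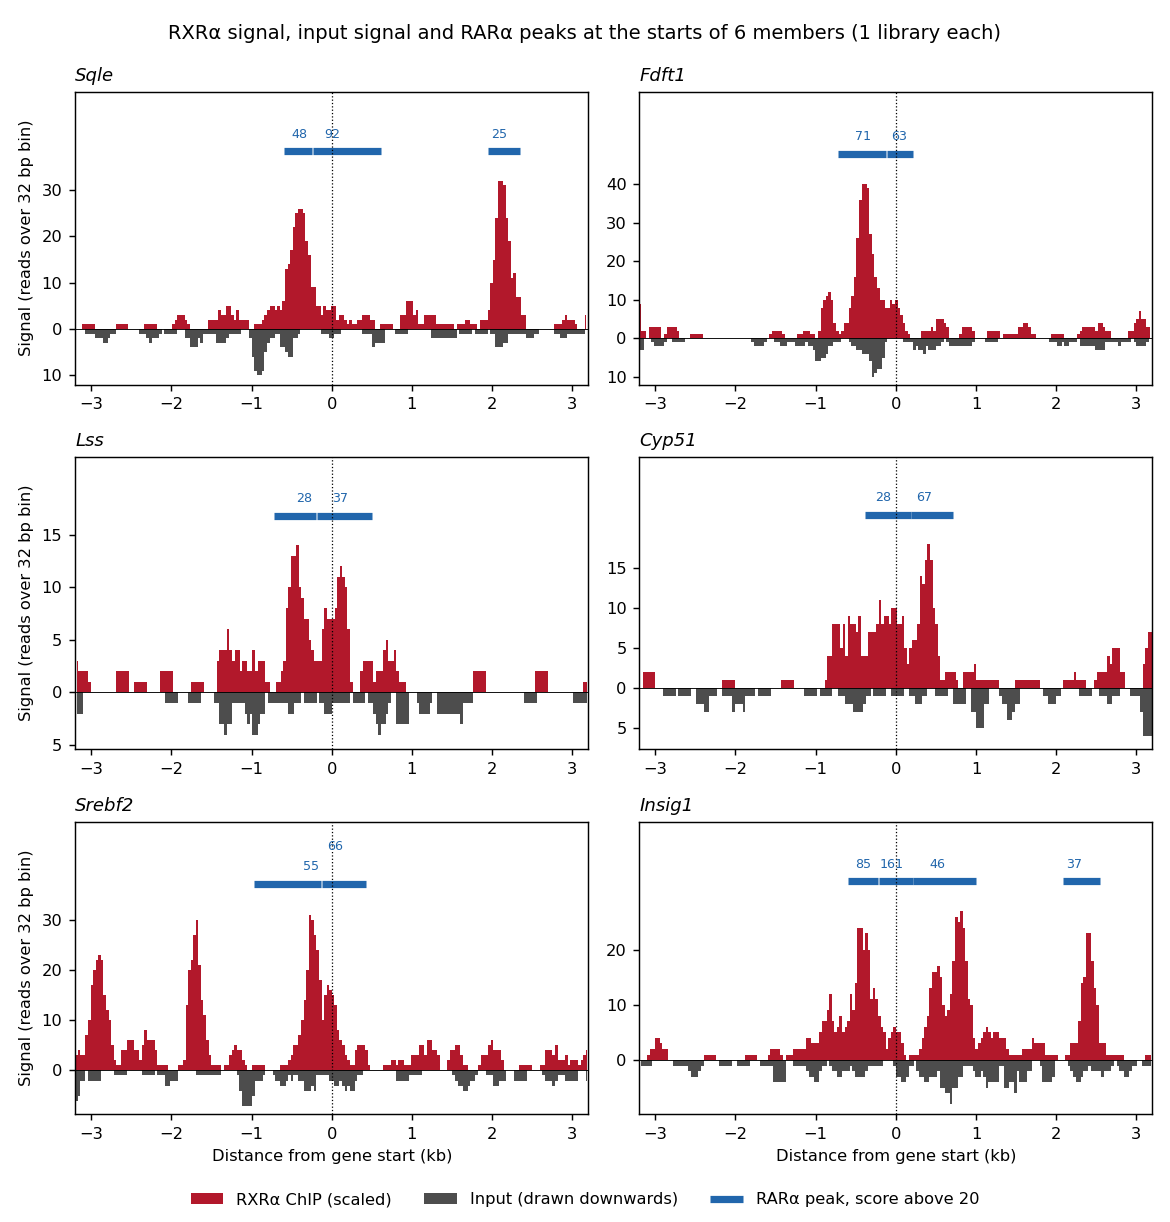
Each panel plots the signal (vertical axis, reads over a 32 bp bin) of the scaled RXRα library (red, upwards) and of input (grey, downwards) against the distance from the gene start (horizontal axis, kb), with RARα peaks with a score above 20 as blue bars and their scores above them. Within 1 kb of the start, the tallest RXRα bins lie beside the highest-scoring RARα peak, under a lower-scoring one, at Sqle, Srebf2 and Insig1. At Fdft1 and Cyp51 they lie under the highest-scoring peak.

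The tallest RXRα bin within 1 kb often lay off the strongest RARα summit, although at each of the 6 genes it lay inside a RARα peak above 20. The joined RARα stretches at these starts were 931 to 2611 bp wide. The share of all genes whose tallest bin lies inside such a peak was not computed. At Sqle the RARα summit lay at position +13 from the gene start, where the RXRα signal was 5, and the tallest RXRα bin within 1 kb, with a signal of 26, lay at position −407. At Srebf2 these positions were +39, with an RXRα signal of 13, and −271, with 31. At Insig1 the RARα summit of score 161 lay at position −57 over an RXRα signal of 5, and the tallest RXRα bin, 27, lay at position +817. The RXRα signal at the RARα summit was therefore between 18.5% and 41.9% of its height nearby in these 3 genes. It was 85.7% at Lss, 72.2% at Cyp51 and 100% at Fdft1. Over all genes with a RARα peak within 1 kb the median was 57.9%, so low values at some members do not set the members apart. At Lss the positions were +102 and −428, with signals of 12 and 14, which counting error does not separate. At Fdft1 and Cyp51 they were within 36 bp and 53 bp of each other. Elsewhere the tallest bin lay inside another RARα peak of the same joined stretch, of score 48 at Sqle, 55 at Srebf2, 46 at Insig1 and 28 at Lss. The tallest RXRα bin thus lay within 200 bp of the RARα summit in 2 of 6 genes, while this was so for 60.4% of the 9140 genes with a RARα peak within 1 kb, where the median distance was 136 bp. This measure was added after the data had been seen.

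Hmgcs1 encodes the cytosolic synthase that joins acetyl-CoA and acetoacetyl-CoA at the entry to the mevalonate pathway. GENCODE M1 holds 0 genes of that symbol, and the 300 bases around its RefSeq start matched 2 unplaced contigs of NCBI37 exactly and 0 of the chromosomes that the tracks cover. RARα and RXRα at Hmgcs1 were therefore not analysed here. Its promoter is shown because it was the only one of the 7 with the full SRE searched, TCACNCCAC, within 300 bases before the start, where 1.18% of all promoters have it. The RefSeq sequence of GRCm38.p6, chr13:119690101-119690350 on the plus strand, covers positions −250 to −1, and capitals mark the SRE at positions −137 to −129 and 3 CCAAT boxes on the minus strand, which read ATTGG.
Hmgcs1 promoter: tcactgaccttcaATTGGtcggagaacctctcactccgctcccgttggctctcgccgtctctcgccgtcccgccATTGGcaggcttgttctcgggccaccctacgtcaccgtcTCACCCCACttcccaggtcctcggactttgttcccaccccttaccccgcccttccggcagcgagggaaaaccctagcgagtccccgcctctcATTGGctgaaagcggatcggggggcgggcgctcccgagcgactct

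Sqle encodes squalene epoxidase, a rate-controlling enzyme that makes the epoxide from which the sterol rings are closed. The gene lies on chromosome 15 from position 59146632 to 59162747 on the plus strand. It had 3 RARα peaks, with a score of 92 in the 5′ UTR at position +13, 48 upstream at position −397 and 25 in an intron at position +2093. The RXRα enrichment over these peaks was 2.89 (1.12 to 11.2), 8.38 (3.50 to 28.4) and 9.12 (3.67 to 29.7) in the same order. RXRα was thus lowest under the highest RARα score, although the intervals overlapped. The single RXRα region was 160 bp wide, held 22.4 RXRα reads and 0.2 input reads and reached a ratio of 43.1 in the bin at position −375, under the upstream RARα peak. The intronic peak was not counted as co-localized, since its tallest RXRα bin, 32 at position +2089, stood over 4 in input and its highest ratio, from a signal of 19 over 1 at position +2217, was 19.0. The bases under the upstream region are shown because RARα and RXRα met there. They lie at chr15:59146165-59146285 on the plus strand in NCBI37, positions −467 to −347, and capitals mark the only match to a searched motif, a GC box on the minus strand that reads CCGCCC.
Sqle upstream region: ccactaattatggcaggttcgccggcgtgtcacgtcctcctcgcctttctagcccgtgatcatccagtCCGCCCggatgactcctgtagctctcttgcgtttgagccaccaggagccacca

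Fdft1 encodes squalene synthase, which commits farnesyl pyrophosphate to sterols. The gene lies on chromosome 14 from position 63763990 to 63796630 on the minus strand, and 10 of its 11 RXRα regions lay inside it. At the start, RARα peaks of score 71 at position −415 and of 63 at position +35 had RXRα below the threshold. Over them the RXRα enrichment was 4.69 (2.66 to 9.22) and 9.62 (1.78 to 513). Under the first, the tallest bin, 40 against 4 in input, stood over raised input. Under the second, a signal of 10 over 0 in input at position +5 gave the highest ratio within 1 kb, 16.6. Farther in, 10 RXRα regions stood in the introns between positions +9605 and +27525, with ratios from 21.0 to 105. They held 260.8 RXRα reads and 4.2 input reads, which was 29.8% of the 874.6 RXRα reads of the gene body. Of the 10, 6 touched no RARα peak of any score, against 46.3% of all RXRα regions, and 1 touched a RARα peak with a score above 20, against 25.4%. That region reached a ratio of 99.6 at position +13381, under a RARα peak of score 29, and had the tallest signal of the 10, 65 over 3 in input at position +13413. The regions at positions +16805 and +12709 touched RARα peaks of score 20 and 19, which just missed the threshold. The region with the highest ratio, 105 from a signal of 63 over 0 in input at position +10949, had no RARα peak. Of these regions 9 lay beyond 10 kb, where 0.163% of the 4298 genes within 1.5 times the length of Fdft1 had as many and the median gene had 0. The count includes all genes of that length, whether or not the liver uses them. A further region, with a ratio of 44.8 at position −6203, lay in an intron of Neil2, whose start is farther off than that of Fdft1. A RARα peak of score 23 at position +31835 lay in the 3′ UTR, nearer to the start of Ctsb.

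**Figure D3:**
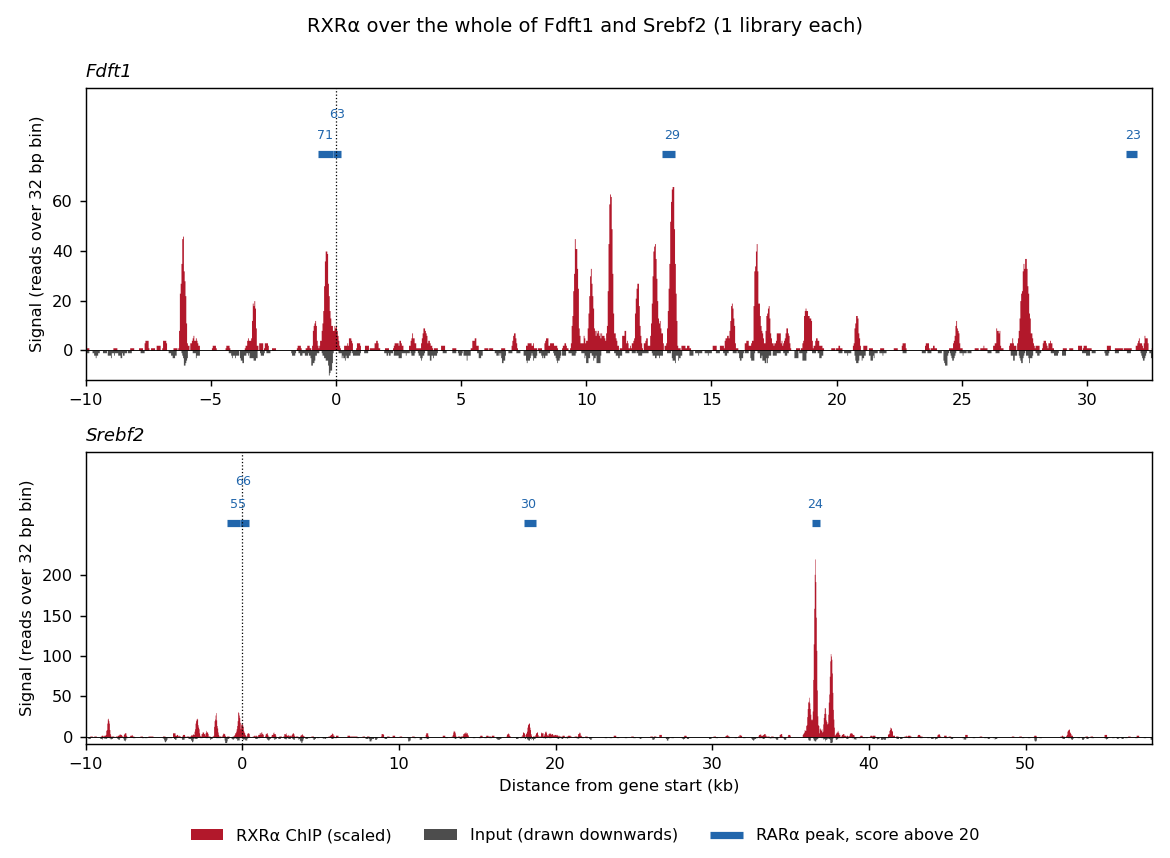
The signal (vertical axis, reads over a 32 bp bin) of scaled RXRα (red, upwards) and input (grey, downwards) is plotted against the distance from the gene start (horizontal axis, kb) from 10 kb upstream to the end of Fdft1 (top) and Srebf2 (bottom), with RARα peaks with a score above 20 in blue and their scores. In Fdft1 the RXRα regions stand in a row from +9605 to +27525 bp with 1 such RARα peak among them, and in Srebf2 the tallest bin, 220, stands at +36561 bp under a RARα peak of score 24.

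The sequences of 2 of the Fdft1 regions are shown, that with the highest ratio and that with a direct repeat of half-sites. Each holds a pair of half-sites under RXRα and no RARα peak. The region at position +15813, not shown, also touched no RARα peak and held AGTTCA at positions +15834 and +15861. Half-sites were searched as AGGTCA or AGTTCA or GGGTCA or GGTTCA on both strands, and 66.8% of all RXRα regions have at least 1 within 100 bp of the tallest bin, so a match alone is common. The region at position +10949 held 2 copies of GGGTCA at positions +10934 and +10953, farther apart than the direct repeats searched. The region with its tallest bin at position +12037 held a direct repeat with 1 base between the half-sites (DR1) at positions +12021 to +12033, which 1.45% of all RXRα regions have. Capitals mark the half-sites, and both stretches are read on the minus strand of NCBI37, at chr14:63785621-63785741 and chr14:63784533-63784653.
Fdft1 intron, +10889 to +11009: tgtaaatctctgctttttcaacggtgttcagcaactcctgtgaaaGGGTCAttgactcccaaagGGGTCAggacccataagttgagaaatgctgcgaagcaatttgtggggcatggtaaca
Fdft1 intron, +11977 to +12097: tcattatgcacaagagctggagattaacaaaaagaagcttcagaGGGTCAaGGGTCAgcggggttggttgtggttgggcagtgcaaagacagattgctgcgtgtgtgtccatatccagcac

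Lss encodes lanosterol synthase, which closes the sterol rings. The gene lies on chromosome 10 from position 75994333 to 76019883 on the plus strand. It was the only placed gene with no RXRα region anywhere within 10 kb of its start or in the gene. Its highest RARα score was also the lowest of the 6, and its peaks above 20 had scores of 37 in an intron at position +102 and 28 upstream at position −348. RXRα was nevertheless above input at the start, with 39.8 RXRα and 6.4 input reads within 500 bp to each side and an enrichment of 6.22 (2.81 to 19.2). The highest ratio, 14.9 at position −364, rested on a signal of 9 over 0 in input and equalled the median of all genes. Over the whole gene body, with 98.2 RXRα and 105.6 input reads, the enrichment was 0.930 and RXRα did not exceed input.

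Cyp51 encodes lanosterol 14α-demethylase, the first step after ring closure. The gene lies on chromosome 5 from position 4081145 to 4104746 on the minus strand. It was the only gene of the 6 whose highest-scoring RARα peak, 67 at position +356 in the 5′ UTR, was co-localized with RXRα, and this is so for 31.5% of the 11676 genes with a RARα peak. The RXRα region there was 64 bp wide and reached a ratio of 29.9, with a signal of 18 over 0 in input. RXRα enrichment was 9.07 (2.54 to 43.1) over that peak and 10.5 (2.77 to 46.4) over the other one, of score 28 at position −159, which held no RXRα region. These intervals overlapped over most of their length. A larger RXRα region, with 67.6 RXRα and 4.0 input reads over 320 bp and a ratio of 39.0, lay in an intron at position +14873 with no RARα peak. The proximal promoter is shown for its loose SRE, TCACNNCA, which 12.7% of all promoters have. It lies at chr5:4104747-4104866 in NCBI37 and is read on the minus strand, positions −120 to −1, with capitals at positions −39 to −32.
Cyp51 promoter: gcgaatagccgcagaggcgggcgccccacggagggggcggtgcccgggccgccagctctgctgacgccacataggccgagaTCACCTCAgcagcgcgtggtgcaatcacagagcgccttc

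Srebf2 encodes the SREBP-2 precursor, and its introns also hold Mir33, the gene of a microRNA that lowers cholesterol efflux, which starts at position +50856. The gene lies on chromosome 15 from position 81977696 to 82035806 on the plus strand. At the start, RARα peaks of score 66 at position +39 in the 5′ UTR and of 55 at position −261 joined another, lower one. RXRα enrichment was 3.54 (1.57 to 10.1) and 3.71 (1.88 to 8.04) over the first and the second, and a region of 1 bin, with a signal of 24 over 1 in input at position −175, made the second co-localized. Farther upstream stood 3 more RXRα regions, with ratios of 44.8 at position −1711, 36.5 at position −2863 and 38.2 at position −8559, the last in an intron of Ccdc134. The region at position −1711 had no RARα peak, that at position −2863 had one of score 16, and that at position −8559 had one of score 20, which just missed the threshold.

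The tallest RXRα signal at any of the 6 genes stood deep inside Srebf2. In an intron, the bin at position +36561 had a signal of 220 (95% Poisson interval 192 to 251) over 5 in input, a ratio of 44.0. Its region was 832 bp wide and held 350.6 RXRα and 11.0 input reads, and a second region of 416 bp beside it, with a signal of 103 over 7 at position +37553, held 159.8 and 9.0 reads. Both together held 56.0% of the 911.6 RXRα reads of the gene body. RARα was weak by its score at both, with 24 at position +36589 and 16 at position +37669, although the first peak had an RXRα enrichment of 40.2 (19.2 to 101), the highest over any RARα peak above 20 at the 6 genes. Of the 3257 genes within 1.5 times the length of Srebf2, 0.829% had a bin as high within 10 kb of the start or in the gene. The RARα peak of score 30 at position +18274 had no RXRα region and an enrichment of 2.57 (1.18 to 5.48).

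Of the Srebf2 sequences, the promoter is shown for the elements named above, and 3 RXRα regions are shown for their half-sites. The promoter, chr15:81977396-81977695 on the plus strand in NCBI37, covers positions −300 to −1. Capitals mark loose SREs at positions −159 to −152 and, on the minus strand, −217 to −210, and a CCAAT box on the minus strand at positions −132 to −128. The RXRα bin of 24 lay at position −175, between the pair of SRE matches. In the regions, capitals mark half-sites, which read TGACCC or TGAACC where they lie on the minus strand. The stretch at chr15:82014197-82014317 under the signal of 220 holds AGGTCA at positions +36527 and +36549, each within the same stretch of 15 bases, gtcaaAGGTCAgagg, which occurs 2 times 22 bp apart. The stretch at chr15:81969077-81969197 holds a direct repeat with 4 bases between the half-sites (DR4), which 0.461% of all RXRα regions have, and that at chr15:81975957-81976077 holds AGGTCA at positions −1714 and −1653.
Srebf2 promoter: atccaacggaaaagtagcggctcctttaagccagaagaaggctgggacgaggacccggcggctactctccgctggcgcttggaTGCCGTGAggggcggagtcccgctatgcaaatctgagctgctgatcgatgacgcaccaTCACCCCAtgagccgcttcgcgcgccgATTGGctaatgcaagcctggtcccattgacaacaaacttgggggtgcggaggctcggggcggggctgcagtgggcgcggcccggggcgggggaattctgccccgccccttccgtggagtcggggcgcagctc
Srebf2 intron, +36501 to +36621: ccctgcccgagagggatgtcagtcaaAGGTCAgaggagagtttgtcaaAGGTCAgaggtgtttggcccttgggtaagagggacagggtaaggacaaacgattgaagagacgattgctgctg
Srebf2 upstream, −8619 to −8499: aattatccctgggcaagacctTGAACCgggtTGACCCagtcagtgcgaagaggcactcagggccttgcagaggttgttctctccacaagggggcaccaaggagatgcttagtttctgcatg
Srebf2 upstream, −1739 to −1619: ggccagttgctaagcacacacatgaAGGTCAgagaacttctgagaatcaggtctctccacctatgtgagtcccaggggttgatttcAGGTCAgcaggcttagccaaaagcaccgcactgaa

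Insig1 lies on chromosome 5 from position 28397952 to 28405201 on the plus strand. Of the 6 genes it had the highest RARα score and the most RARα peaks above 20. Fdft1 had more listed peaks of any score, 32 against 24 at Insig1. Insig1 had 9 RARα peaks with a score above 20 within 10 kb, a number reached by 0.657% of all genes, while the median of genes with a peak was 2. Their scores were 85 at position −407, 161 at −57, 46 at +513, 37 at +2228, 28 at +4783, 21 at +5128, 26 at +7373, 34 at +8033 and 26 at +8703. Those of 85, 161 and 46 abutted with gaps of at most 10 bp, as did 28 and 21, and 26, 34 and 26. The number of peaks thus depends on how the signal was split, and the share of genes was not computed for joined stretches. RARα thus covered the promoter, the gene and the bases beyond its end. RXRα exceeded input beyond counting error at 3 of these peaks, with an enrichment of 8.17 (2.99 to 24.7) at position −407, 3.81 (2.13 to 6.97) at +513 and 4.57 (1.82 to 13.3) at +2228. At the other 6 it did not, for example 2.36 (0.721 to 10.9) under the score of 161 at position −57, and 12 RXRα against 12.6 input reads at position +8033. The RXRα regions at positions +849 and +2417 were 1 bin wide each, with signals of 24 and 23 over 1 in input, and made the peaks at +513 and +2228 co-localized. The start of a non-coding gene on the other strand, Gm16719, lies at position −307, and RARα at the pair of starts cannot be told apart.

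The Insig1 promoter is shown because it holds the highest RARα score of the 6 genes. It lies at chr5:28397652-28397951 on the plus strand in NCBI37, positions −300 to −1, and capitals mark a CCAAT box on the minus strand at positions −216 to −212 and a run at positions −105 to −96. In that run a half-site, AGGTCA, overlaps the E-box CACGTG, which 7.39% of all promoters have, while 42.6% have a half-site.
Insig1 promoter: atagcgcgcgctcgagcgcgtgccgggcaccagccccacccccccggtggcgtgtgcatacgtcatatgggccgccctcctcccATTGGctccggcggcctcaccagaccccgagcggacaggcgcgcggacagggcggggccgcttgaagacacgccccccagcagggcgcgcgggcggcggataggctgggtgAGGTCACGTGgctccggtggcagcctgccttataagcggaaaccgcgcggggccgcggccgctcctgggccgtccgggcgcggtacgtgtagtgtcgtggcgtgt

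GC boxes were found in more of the 7 promoters than SREs, as over all promoters. Within 300 bases before the start, GGGCGG on either strand was found in 7 of 7, against 40.9% of all promoters, and CCAAT in 6 of 7, all but Cyp51, against 39.0%. The loose SRE was found in 3 of 7, Hmgcs1, Cyp51 and Srebf2, against 12.7%. CpG dinucleotides numbered 19 to 44 in these 300 bases, against a median of 9 over all promoters, and their part in the counts of GC boxes was not tested. Direct repeats of half-sites with 1 to 5 bases between them were found in 0 of 7 promoters, against 0.555% of all, which says only that these letters do not occur in these windows.

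**Figure D4:**
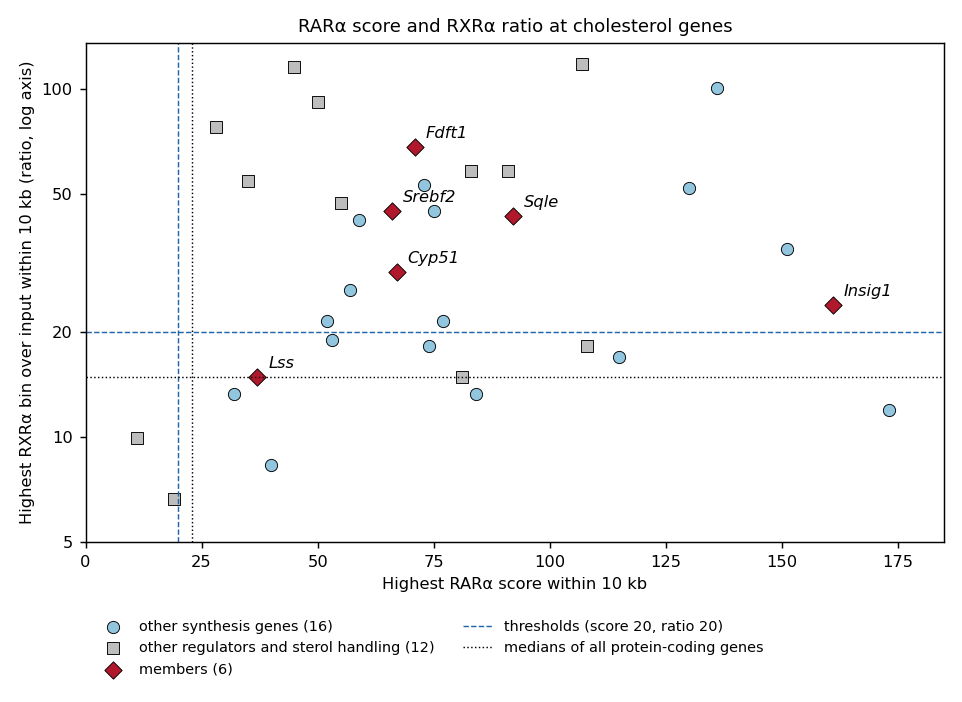
Each point is 1 gene, plotted by its highest RARα score within 10 kb (horizontal axis) and its highest RXRα bin over input within 10 kb (vertical axis, ratio on a log scale), for the 6 members (red), 16 other synthesis genes (blue) and 12 other regulators and sterol-handling genes (grey). Dashed lines are the thresholds and dotted lines the medians of all protein-coding genes, and 5 of 6 members lie above both thresholds while Lss, at 37 and 14.9, lies above the RARα threshold alone. The share of all genes above both was not computed. The values of a gene need not come from the same place, as at Fdft1, with RARα at position −415 and RXRα at +9605.

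In the rest of the pathway RARα peaks were more frequent than RXRα regions, an order also found over all protein-coding genes, where the shares within 10 kb were 52.2% for RARα, 39.8% for RXRα and 23.5% for a co-localized peak. Of 16 other synthesis genes, 16 had a RARα peak within 10 kb, 9 had an RXRα region and 8 a co-localized RARα peak. Their highest RARα scores lay between 32 and 173, and the median was 74.5, against 69 at the 6 members. Of 12 other regulators and sterol-handling genes, 10 had a RARα peak, 8 an RXRα region and 7 a co-localized peak, to be read against the same shares. The exceptions for RARα were Mbtps2, a protease that frees SREBPs, with a highest score of 19, and Soat1, which esterifies cholesterol, with 11. The highest RXRα ratios had a median of 36.5 at the members, 21.6 at the other synthesis genes and 56.3 at the other regulators, against 14.9 over all genes. Of the 24 RARα peaks above 20 at the members, 7 were co-localized, 29.2%, against 32.2% of all such peaks, a share near the background.

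In short lists of liver cell markers, binding stood most often at those of hepatocytes. Of 8 hepatocyte markers, RARα peaks were found at 7 and RXRα regions at 8, against 52.2% and 39.8% of all genes. Of 4 Kupffer cell markers, 0 had either. A RARα peak stood at 1 of 3 stellate cell, 2 of 3 endothelial and 1 of 4 cholangiocyte markers, and an RXRα region at 0, 1 and 1 of them, lists too short to be set apart from those shares. The libraries are of whole liver, so binding at the members cannot be assigned to a cell type.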

How the data were processed

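The authors aligned reads with Bowtie and called RARα peaks with MACS, and the submitters' processing notes also name CASAVA 1.4 and the build mm9. The methods name mm10 for the alignment, but the deposited track headers name mm9, and 0 RARα peaks pass a chromosome end of NCBI37. The deposited RXRα and input files hold a signal, namely whole-number coverage in 32 bp bins, in which 1 read covers 5 bins. For RARα they deposited a list with a score and a false discovery rate in percent per peak, the latter at most 4.75% and not used as a filter.

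RXRα was scaled so that its mean equalled that of input, a small step, since the deposited means were 0.602653 and 0.602614 per bin. Bins of at least 20 times the larger of local and mean input were joined within 200 bp and assigned by midpoint, and RARα peaks by summit. The values of the score threshold, 10 kb, 20 fold and 25% follow the study's methods, and the rest was chosen here. The study applied them to called peaks. Here 20 fold was applied to bins, and 25% to the narrower interval. The RXRα regions are therefore not the study's RXRα peaks, and a gene without a region here may hold such a peak. The 95% intervals are exact and cover counting error only. The steps were tested on simulated data. No p-value was computed with 1 library each. All 7 members are named, with every RARα peak above 20 and RXRα region that bears on a result. Members and lists were chosen with earlier results of these data known. Python 3.11.15, numpy 2.4.6, pandas 2.3.3, scipy 1.17.1 and biopython 1.88 were used, with RefSeq promoters (5 of 7 members matched) and GENCODE M1.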

Additional observations from a re-analysis of the deposited data

How the results depend on the processing

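The 6 genes with a RARα peak fell to 1 (Insig1) at a score above 100 and were 5 or 6 under the other alternatives. The 5 genes with an RXRα region fell to 3 at 30 times input and were 4 to 6 otherwise, with Lss gained at 5 and 10 times and with mean input only. The 4 genes with a co-localized peak fell to 2 at a score above 50, 0 above 100, 1 (Sqle) at 30 times input, and 2 (Sqle and Cyp51) when regions of 1 bin were left out, an alternative chosen after seeing the data. They were 5 without a score threshold or with the gene body included, and 6 at 5 or 10 times input or with mean input only, and other windows, overlaps and merging gave 4. The highest RARα scores did not change between 10 kb and 1 kb. No paired analysis was possible because each antibody has 1 library. The deposited RARα list does not hold its read depth. Input at the members is so thin, at 14.4 to 31.6 reads per 2001 bp, that ratios near 20 turn on 1 input read.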
